A study of Mus musculus with 2 samples.

Results

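The receptor gene Cxcr2 and the genes of 3 of its ligands, Cxcl1, Cxcl2, and Cxcl3, were followed through the leukocytes of the mouse heart. These 4 genes were taken by name from the 23946 genes counted in the scRNA-Seq of CD45+ cells, the leukocytes, sorted from hearts of female C57BL6 mice. Adult mice received either isoproterenol (ISO), a beta-adrenergic agonist given at 200 mg/kg to produce a Takotsubo-like cardiomyopathy (TTS), or an injection of vehicle (Control). The deposited descriptions state this dose for both samples, and the library titled Control was taken as the vehicle group from its title and the study's methods. Cells of 3 hearts were pooled at 24 hours in each group and sequenced as 1 library, so the groups could not be compared across animals and no p-value is given.

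CXCR2 is a G protein-coupled receptor best known on neutrophils, which it draws out of the bone marrow and through vessel walls toward inflamed tissue. Its ligands are small secreted CXC chemokines that carry a glutamate-leucine-arginine (ELR) motif ahead of the first cysteines. Cxcl1 encodes KC, Cxcl2 encodes MIP-2, and Cxcl3 encodes a close relative of both. Their transcripts are made quickly after inflammatory signals through NF-kB, and they are short-lived because AU-rich elements in the 3′ untranslated region recruit decay factors such as tristetraprolin.

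The ligand genes lay together on chromosome 5 of GRCm38 in the GENCODE annotation, all on the plus strand, within 119.836 kb. Cxcl3 spanned chr5:90786103-90789600, Cxcl1 spanned chr5:90891241-90893115, and Cxcl2 followed at chr5:90903871-90905938. Cxcl5, Ppbp, and Cxcl15, which encode other ELR chemokines, and Pf4, which encodes platelet factor 4, were in the same cluster. Cxcr2 lay apart from them at chr1:74153989-74161246, and Cxcr1, its closest relative, was 30.538 kb away. No annotated gene overlapped a member, and 31-base stretches shared between members were found only between Cxcl2 and Cxcl3, 80 in number, none of them in the last 500 bases that a 3′ library reads.

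The promoters of the ligands are shown because the 3 genes were higher together in many classes of cells below. In RefSeq promoters on GRCm38.p6, from 250 bases before the start to 50 after it, the longest letters that all 3 shared ahead of the start were GGGAATTTCCC, a form of the motif that NF-kB proteins bind. The next longest were ATAAAAGG, letters like those of a TATA box. They follow a T in Cxcl3, but a C in Cxcl1 and Cxcl2. Both are in capitals in these stretches, which run from 10 bases ahead of the first motif to the RefSeq start.
Cxcl1, chr5:90891164-90891240, plus strand: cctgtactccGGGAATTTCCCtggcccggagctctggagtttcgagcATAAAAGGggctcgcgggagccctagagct
Cxcl2, chr5:90903792-90903870, plus strand: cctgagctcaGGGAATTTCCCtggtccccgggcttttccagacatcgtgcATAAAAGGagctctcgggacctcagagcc
Cxcl3, chr5:90786018-90786100, plus strand: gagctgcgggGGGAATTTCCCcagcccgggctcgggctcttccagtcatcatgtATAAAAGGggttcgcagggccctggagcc

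Searched on both strands, GGGAATTTCCC was found in 14 of 32851 promoters (0.0426%) and ATAAAAGG in 577 (1.76%). The letters occurred together in 3 promoters, those of Cxcl1, Cxcl2, and Cxcl3. Neither run was in the promoter of Cxcr2. As the runs were picked for being shared, these counts describe the letters and test nothing about a factor.

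The AU-rich stretches of the transcripts differed among the ligands. The motif TATTTAT, read along the transcript and counted with overlaps, occurred 5 times in the first 400 bases of the 3′ untranslated region of Cxcl1 and 6 times in that of Cxcl2. At least as many as in Cxcl1 were found in 6 of 14367 genes compared (0.0418%), and at least as many as in Cxcl2 in 5 genes (0.0348%). Cxcl3 had 0 copies in these bases and 2 in the whole region, and Cxcr2 had 0. The densest 30 bases of Cxcl1 and Cxcl2 and the first copy in Cxcl3 are given with the motif in capitals.
Cxcl1, chr5:90892603-90892632, plus strand: agggtccTATTTATTTATgTATTTATTTAT
Cxcl2, chr5:90905324-90905353, plus strand: actTATTTATTTATctatgTATTTATTTAT
Cxcl3, chr5:90787855-90787884, plus strand: aactatacaagattatcagttgtTATTTAT

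Each RNA molecule carried a unique molecular identifier (UMI), and each droplet a cell barcode. The libraries held 47382455 UMIs in the Control and 58495112 in the ISO library. After the cell filters of the study, 5641 Control barcodes with a median of 4790 UMIs and 5437 ISO barcodes with a median of 8537 UMIs were kept. Of the barcodes, 15 were found in both libraries. Barcodes were assigned to classes by their level of marker genes, and the classes are called gated because they rest on these markers alone. At least 9 of the 10 neutrophil markers and every macrophage and classical monocyte marker were detected in their own class in both libraries, while Ly6g, a defining neutrophil gene, had no UMI in neutrophil-gated barcodes of either library. The gates gave 122 Control and 83 ISO neutrophil-gated, 928 and 2143 macrophage-gated, and 55 and 1251 classical monocyte-gated barcodes.

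Many barcodes passed the gates of 2 or more lineages, 1422 in the Control (25.2%) and 1023 in the ISO library (18.8%). They were kept as classes of their own, because such a barcode can join genes of different cells. Macrophages, monocytes, and DCs counted as 1 lineage here, and a barcode that passed more than 1 of their gates went to the class with the highest score relative to its limit. The classical monocyte gate was also passed by 16 of 928 Control (1.72%) and 1129 of 2143 ISO (52.7%) macrophage-gated barcodes. The macrophage gate was also passed by 21 of 55 Control (38.2%) and 976 of 1251 ISO (78.0%) classical monocyte-gated barcodes, so these classes shade into each other in the ISO library. Barcodes of neutrophil and macrophage together numbered 203 in the Control and 602 in the ISO library. Their median of 13547 Control and 12567 ISO UMIs was above the 2708 and 4203 UMIs of neutrophil-gated barcodes and the 6379 and 9047 UMIs of macrophage-gated barcodes. What gave rise to them was not tested.

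Over all kept barcodes, the 3 ligands were higher in the ISO library and the receptor was nearly level. Levels are counts per 1000000 UMIs (CPM) of the summed barcodes, with 95% intervals that cover counting error only. Cxcl1 was at 190.2 (Control) and 837 CPM (ISO), 4.40-fold higher (95% interval 4.30 to 4.51). Cxcl2 was at 3380.3 and 15418 CPM, 4.56-fold higher (4.54 to 4.59). Cxcl3 was at 6.36 and 324 CPM, 50.8-fold higher (45.0 to 57.6), from 265 Control and 17939 ISO UMIs.

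Thus 3 of the 4 members were past 2-fold higher over all kept barcodes, where 6.9% of 15976 genes with at least 20 UMIs were past 2-fold higher and 31.5% past 2-fold lower. Cxcr2 was at 35.4 (Control) and 41.1 CPM (ISO), a log2 ratio of 0.22 (0.12 to 0.31). That direction turned when barcodes of 2 or more lineages were left out, to −0.58, and it was −0.15 as a mean of per-barcode CPM and −0.24 after the B cell-gated level was subtracted. The mix of cells differed strongly between the libraries: barcodes that passed the macrophage gate held 63.1% of Control and 81.9% of ISO UMIs, and B cell-gated barcodes numbered 2032 in the Control and 52 in the ISO library. More cells of a class and more RNA per cell cannot be told apart in such sums, so each class was examined in turn.

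**Figure D1:**
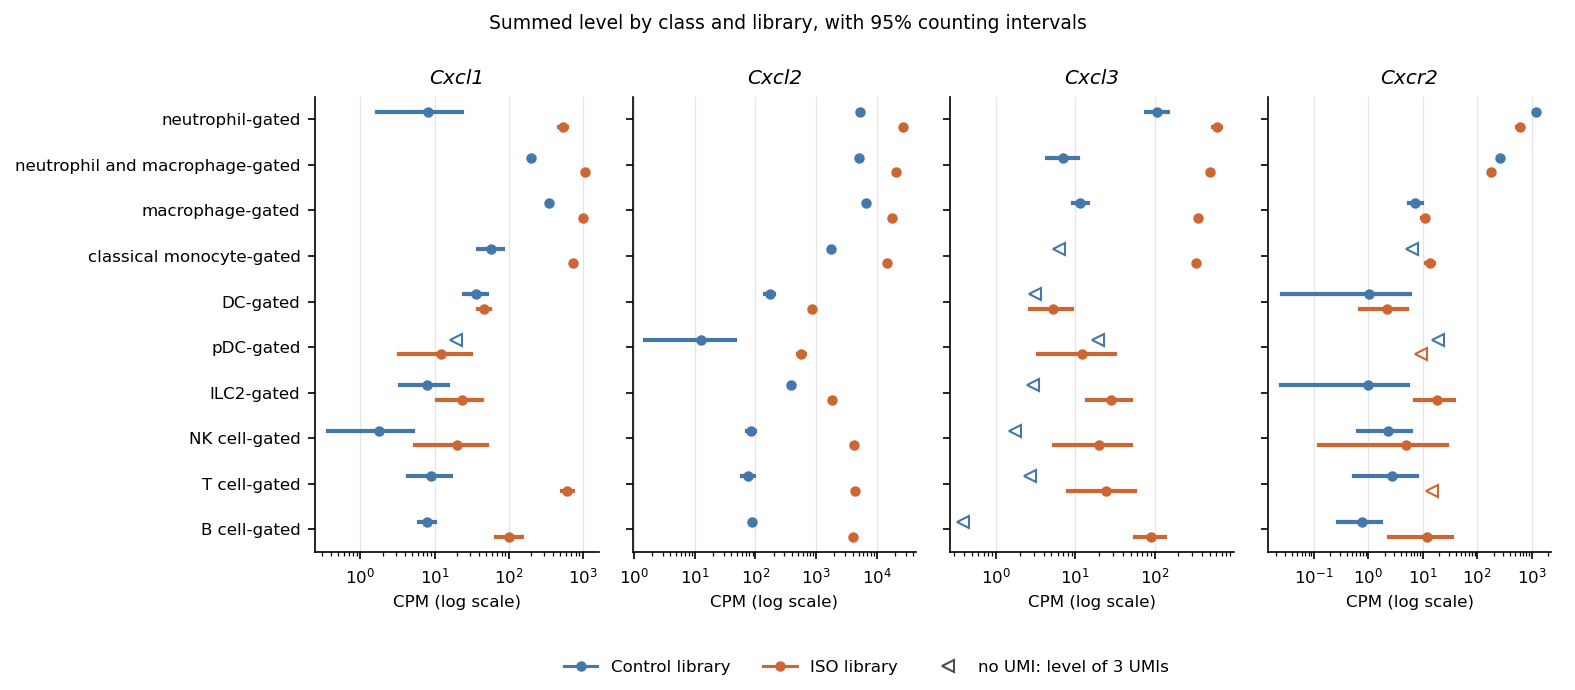
Level of each member in CPM (log axis) in the summed barcodes of 10 gated classes, in the Control (blue) and the ISO (orange) library. Points are levels, lines are 95% Poisson intervals, and open triangles mark classes with no UMI at the level of 3 UMIs. In macrophage-gated, neutrophil-gated, and classical monocyte-gated barcodes each ISO ligand level is to the right of the Control level, and Cxcr2 peaks in neutrophil-gated barcodes of both libraries.

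Most UMIs of all 3 ligands came from barcodes with macrophage markers in both libraries. Those that passed the macrophage gate, alone or with another lineage, held 96.2% of Control and 95.9% of ISO Cxcl1 UMIs. For Cxcl2 these shares were 95.9% and 93.0%, and for Cxcl3 they were 84.9% and 94.6%. The same barcodes made up 40.2% of kept Control and 75.7% of kept ISO barcodes, and held 63.1% and 81.9% of all UMIs. The Control ligand UMIs were thus held by a minority of the Control barcodes.

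Within that share, the split among classes depended on the gates. Macrophage-gated barcodes, as defined above, held 32.4% of Control and 52.1% of ISO Cxcl1 UMIs, 33.7% and 49.8% of Cxcl2 UMIs, and 31.7% and 46.8% of Cxcl3 UMIs. With the gate limits multiplied by 2 the Control share was the larger one, at 61.3% and 46.7% for Cxcl1, 60.6% and 40.7% for Cxcl2, and 60.8% and 39.8% for Cxcl3. With each barcode in the class of its highest list, the shares were 74.6% and 72.9% for Cxcl1, 76.2% and 68.3% for Cxcl2, and 67.2% and 67.4% for Cxcl3. In the Control, 55.7% of Cxcl1 UMIs were in barcodes of macrophage and a lineage other than neutrophil, against 9.26% in the ISO library. Classical monocyte-gated barcodes held 0.353% of Control and 16.9% of ISO Cxcl1 UMIs. They held 0.608% and 18.5% of Cxcl2 UMIs and 0% and 19.7% of Cxcl3 UMIs.

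**Figure D2:**
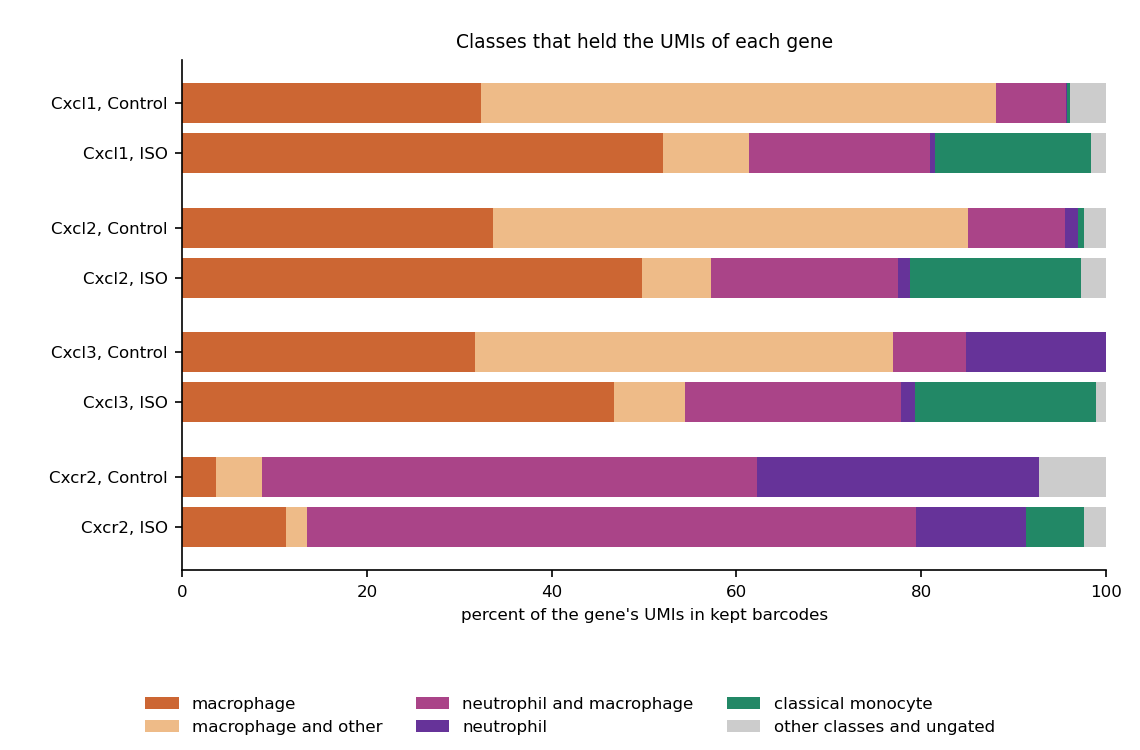
Percent of the UMIs of each gene held by each class of kept barcodes, as 1 stacked bar for each gene and library. The orange macrophage-gated part runs from 31.7% to 52.1% for the ligands, the green classical monocyte part appears mainly in the ISO bars, and the purple parts of barcodes that passed the neutrophil gate carry most Cxcr2 UMIs.

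Macrophage-gated barcodes, the class with the most ligand UMIs in the ISO library, had higher levels of each ligand there. Cxcl1 was at 355 (Control) and 1022 CPM (ISO), 2.88-fold higher (2.76 to 3.00). Cxcl2 was at 6557 and 17989.6 CPM, 2.74-fold higher (2.72 to 2.77). Cxcl3 was at 11.6 and 354 CPM, 30.3-fold higher (24.6 to 38.3).

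In this class 8.75% of 12807 genes were past 2-fold higher and 21.6% past 2-fold lower, with a median log2 ratio of −0.26 over all of them. The log2 ratios were 1.53 for Cxcl1, 1.46 for Cxcl2, and 4.92 for Cxcl3, which put the ligands at the 95.9th, 95.6th, and 99.7th percentiles of these genes. Cxcr2, at 7.33 and 10.9 CPM, was within 2-fold, with a log2 ratio of 0.56 (0.14 to 1.02). It came from 53 Control and 257 ISO UMIs. Without barcodes that also passed the classical monocyte gate, the log2 ratios were 1.42 for Cxcl1, 1.36 for Cxcl2, and 4.57 for Cxcl3, while that of Cxcr2 turned to −0.38 (−0.95 to 0.19).

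The shares of barcodes with a UMI gave the same order. To compare them at equal depth, every barcode was thinned to 1000 UMIs. Cxcl2 was then found in 66.6% of Control (95% interval 63.5% to 69.6%) and 86.6% of ISO (85.1% to 88.0%) macrophage-gated barcodes. Cxcl1 was found in 15.6% and 24.0% of them, and Cxcl3 in 0.647% and 12.6%. Without thinning, these shares were 77.9% and 95.9% for Cxcl2, 26.9% and 39.8% for Cxcl1, and 3.23% and 28.0% for Cxcl3.

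B cell-gated barcodes were taken as the background of these shares. B cells are not known as a source of these chemokines, though what gave their UMIs was not tested. Their thinned shares were 6.96% for Cxcl2, 0.444% for Cxcl1, and 0% for Cxcl3 in the Control library, with 3234 UMIs as the class median. In the 52 ISO B cell-gated barcodes, with a median of 3734 UMIs, they were 34.6% for Cxcl2 (22.0% to 49.1%), 1.92% for Cxcl1, and 1.92% for Cxcl3. The interval of each macrophage share lay above that of the B cell-gated barcodes of its library. It came closest for Control Cxcl3, with a lower bound of 0.238% over an upper bound of 0.182%.

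**Figure D3:**
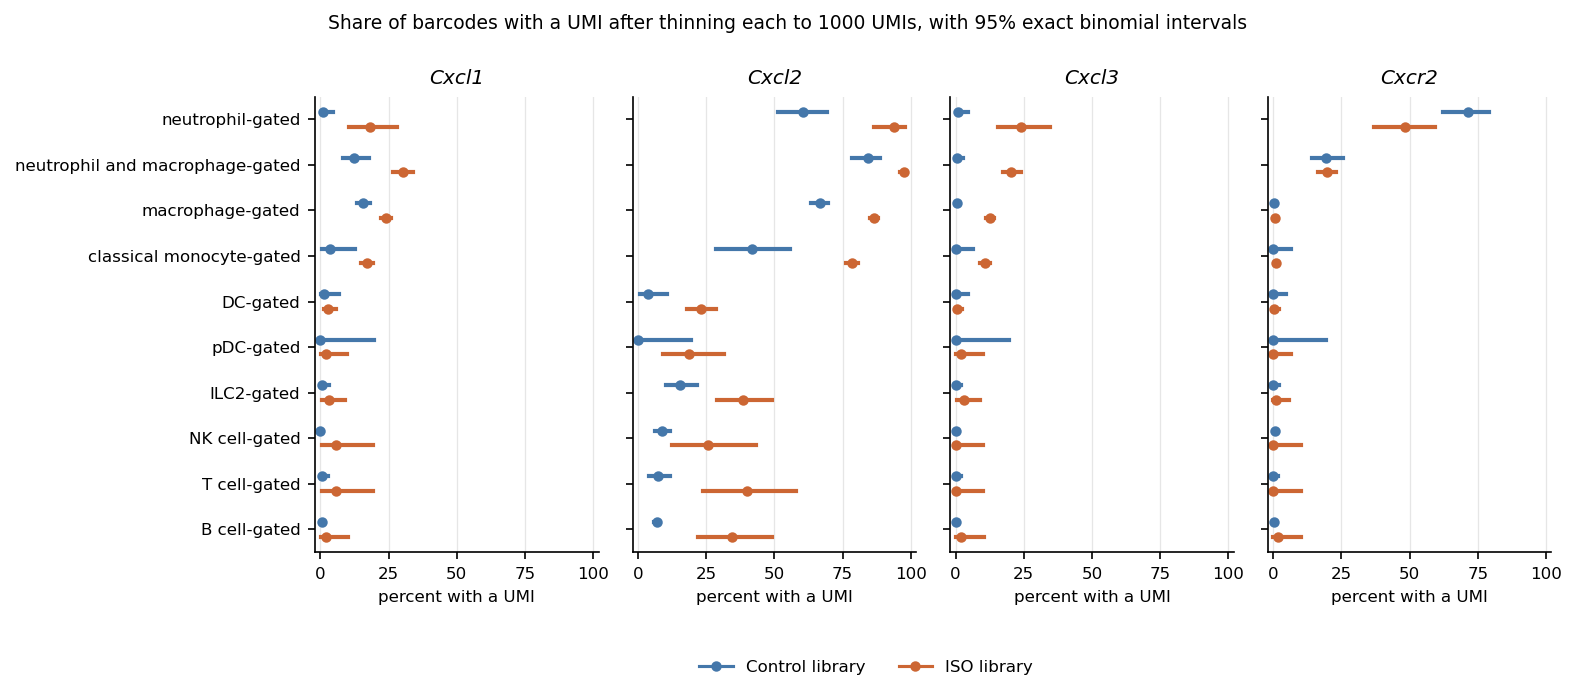
Percent of barcodes with a UMI of each member after every barcode was thinned to 1000 UMIs, in the Control (blue) and the ISO (orange) library, with 95% exact binomial intervals. Cxcl2 is found in 86.6% of ISO macrophage-gated and 94.0% of ISO neutrophil-gated barcodes, Cxcl1 and Cxcl3 in fewer barcodes of the same classes, and Cxcr2 stands out from the floor in the 2 classes that passed the neutrophil gate.

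The ligands were unevenly spread over macrophages. In the ISO library the 10% of macrophage-gated barcodes with the most Cxcl2 held 30.6% of its UMIs, and the barcode with the most held 1127 UMIs. For Cxcl1 the 10% with the most held 70.2% of the UMIs, and for Cxcl3 they held 85.1%. These shares move with depth and detection, so the libraries were not compared on them.

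In macrophage-gated and classical monocyte-gated ISO barcodes the ligands tended to be found together. After thinning, Cxcl2 was found in 99.0% of the 514 ISO macrophage-gated barcodes with Cxcl1 (97.7% to 99.7%) and in 82.7% of the 1629 without it (80.8% to 84.5%). Cxcl1 was found in 38.5% of the 270 barcodes with Cxcl3 (32.7% to 44.6%) and in 21.9% of the 1873 without it. In classical monocyte-gated ISO barcodes the same comparison gave 36.6% of 134 (28.4% to 45.3%) and 14.7% of 1117 (12.7% to 16.9%). In neutrophil-gated ISO barcodes it gave 20% of 20 (5.73% to 43.7%) and 17.5% of 63 (9.05% to 29.1%). In ISO barcodes of neutrophil and macrophage together it gave 35.8% of 123 (27.3% to 44.9%) and 28.8% of 479 (24.8% to 33.1%). The intervals overlap in these classes. These intervals treat barcodes of a library as independent and describe these libraries alone.

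Macrophage-gated barcodes were divided by a list of resident genes (Timd4, Lyve1, and others), then by Arg1, which encodes arginase 1, and then by MHC class II genes. Resident barcodes numbered 441 in the Control and 186 in the ISO library, MHC class II barcodes 412 and 289, and the remaining barcodes 72 and 896. Arg1 barcodes numbered 3 in the Control and 772 in the ISO library, so that no Control level is given for them. The division was set after the data were seen, and none of its genes is a member.

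The ISO level of each ligand was higher than the Control level in the resident, MHC class II, and remaining subsets. In resident barcodes Cxcl1 was at 281 and 975 CPM, 3.47-fold higher (3.21 to 3.75), and Cxcl2 was at 5128 and 11315 CPM, 2.21-fold higher (2.16 to 2.25). MHC class II barcodes had smaller ratios for both, with Cxcl1 at 425 and 577 CPM, 1.36-fold higher (1.27 to 1.45), and Cxcl2 at 7632 and 12184 CPM, a log2 ratio of 0.67 (0.65 to 0.70). In the remaining barcodes Cxcl1 was at 414 and 999 CPM and Cxcl2 at 9971 and 19071 CPM.

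Cxcl3 separated the libraries in every subset with a Control level. It was at 13.3 and 258 CPM in resident, 10.2 and 163 CPM in MHC class II, and 9.41 and 278 CPM in the remaining barcodes. These Control levels came from 46, 34, and 4 UMIs, and the interval in the remaining barcodes was 11.5-fold to 108.5-fold. Arg1 barcodes had the highest ISO level of each ligand among the subsets, at 1208 CPM of Cxcl1, 20455 CPM of Cxcl2, and 510.0 CPM of Cxcl3. They held 25.1% of all ISO Cxcl1 UMIs, 23.1% of Cxcl2 UMIs, and 27.5% of Cxcl3 UMIs, as 14.2% of the kept ISO barcodes. Per UMI, their levels stood beside 837 CPM of Cxcl1, 15418 CPM of Cxcl2, and 324 CPM of Cxcl3 over all kept ISO barcodes.

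**Figure D4:**
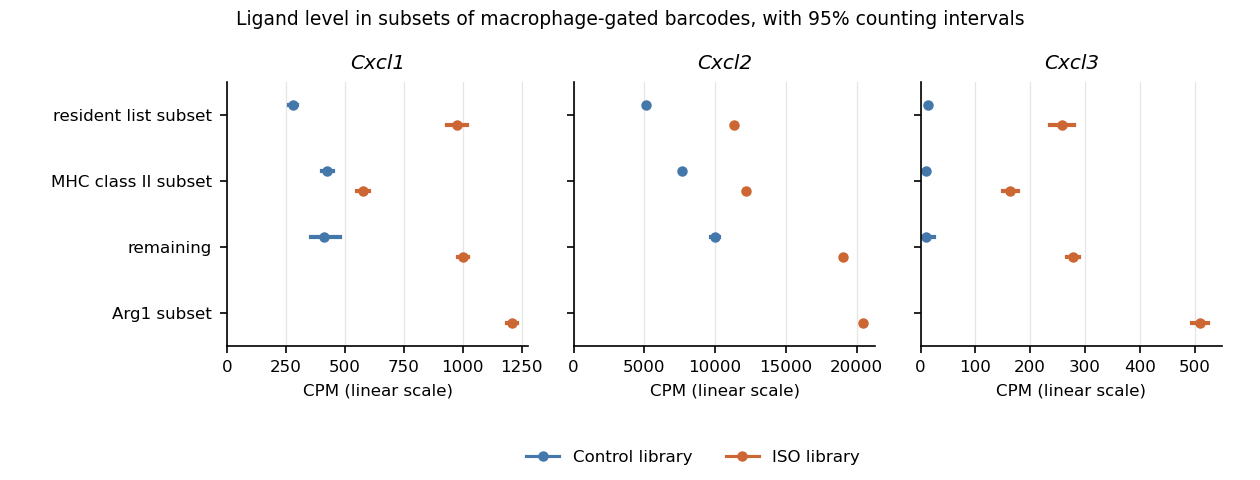
Level of the 3 ligands in CPM (linear axis from 0) in subsets of macrophage-gated barcodes, in the Control (blue) and the ISO (orange) library, with 95% Poisson intervals. The Arg1 subset has only 3 Control barcodes, which are not drawn. Its ISO level is the highest of the subsets for each ligand, and the MHC class II subset shows the smallest distance between the libraries for Cxcl1.

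Classical monocytes are the Ly6c2 cells that enter inflamed tissue from the blood. Classical monocyte-gated barcodes differed in macrophage markers between the libraries, with a median macrophage list score of 0.89 in the Control and 1.28 in the ISO library. Cxcl1 was at 58.3 CPM (28 UMIs) in the 55 Control barcodes and 735 CPM in the 1251 ISO barcodes, 12.4-fold higher (8.72 to 19.0). Cxcl2 was at 1782 and 14819.8 CPM, 8.31-fold higher (7.78 to 8.91). Cxcl3 had 0 UMIs in the Control and was at 331 CPM in the ISO library, 53.0-fold higher than the level of 3 Control UMIs. The counting interval of its ratio began at 43.0-fold. Without barcodes that also passed the macrophage gate, which left 34 Control and 275 ISO barcodes, Cxcl1 was at 87.7 and 451 CPM (log2 ratio 2.34, against 3.63), Cxcl2 was at 1846 and 12000.4 CPM (interval 2.58 to 2.82, against 3.06), and Cxcl3 was at 0 and 235 CPM.

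Cxcr2 had 0 UMIs in Control classical monocyte-gated barcodes and 143 in ISO ones, at 13.4 CPM, and the counting interval of its ratio began at 1.72-fold. Without barcodes that also passed the macrophage gate, it had 0 Control and 60 ISO UMIs, at 27.2 CPM. All 4 members were past 2-fold higher in the whole class, where 12.3% of 10174 genes were past 2-fold higher and 18% past 2-fold lower. After thinning, Cxcr2 was found in 1.04% of these ISO barcodes (0.554% to 1.77%), within the interval of ISO B cell-gated barcodes (0.0487% to 10.3%). That interval, from 52 barcodes, is too wide to decide whether this share differed from the floor. Barcodes that passed the neutrophil gate with a higher relative classical monocyte score were in this class, in the ISO library only. They held some of its Cxcr2 UMIs. Of 1849 ISO Cxcr2 UMIs within the neutrophil gate, neutrophil-gated barcodes held 271, those with macrophage 1505, and those with another lineage 34. The summed level of neutrophil markers in the class was 356 (Control) and 625 CPM (ISO), and its part in the remaining Cxcr2 level was not tested.

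Nonclassical monocyte-gated barcodes, which patrol vessel walls, numbered 61 in the Control and 7 in the ISO library. Cxcl2 was at 788 CPM in the Control, below the macrophage and above the lymphocyte levels. Dendritic cells (DCs) were low in all members. Cxcl2 was at 172 CPM in 79 Control and 861 CPM in 248 ISO DC-gated barcodes, but 81.9% of the Control UMIs came from 1 barcode. Cxcl1 in DC-gated barcodes was at 36.2 and 46.6 CPM, a log2 ratio of 0.35 (−0.20 to 0.96) that does not tell the libraries apart.

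Lymphocyte-gated barcodes had low ligand levels in the Control and much Cxcl2 in the ISO library. Cxcl2 was at 87.8 CPM in Control and 3993 CPM in ISO B cell-gated barcodes. It was at 76.7 and 4394 CPM in T cell-gated, and at 85.1 and 4137 CPM in natural killer (NK) cell-gated barcodes. These 3 ISO levels lay below that of macrophage-gated barcodes and rested on 52, 35, and 35 barcodes, of which 1 barcode held 33.2%, 44.7%, and 49.5% of the Cxcl2 UMIs.

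Genes not known from lymphocytes were higher in the same barcodes. Chi3l3, a monocyte and macrophage gene, was at 10.7 CPM in Control and 2179 CPM in ISO B cell-gated barcodes. Spp1, which encodes osteopontin, was at 11.2 and 1032 CPM in NK cell-gated barcodes. Their part in the Cxcl2 of these classes was not tested. Cxcl1 in ISO T cell-gated barcodes, at 620.0 CPM, came to 96.8% from 1 barcode.

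Innate lymphoid type 2 (ILC2) cells had 392 CPM of Cxcl2 in 175 Control and 1829 CPM in 96 ISO barcodes, and 38.5% of the thinned ISO barcodes had a UMI (28.8% to 49.0%). Plasmacytoid DC-gated barcodes had 12.8 and 574 CPM, with 55.6% of the ISO UMIs in 1 barcode. In fibroblast-, endothelial-, or mural-gated barcodes Cxcl1 was at 454 CPM in 38 Control and 250.2 CPM in 15 ISO barcodes, where 83.8% of the Control UMIs were in 1 barcode. As CD45+ cells were sorted, these barcodes do not represent the stroma of the heart.

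Neutrophils carried the receptor and also held ligand transcripts. In neutrophil-gated barcodes Cxcl2 was at 5340.2 (Control) and 26749 CPM (ISO), 5.01-fold higher (4.78 to 5.26), the highest ISO Cxcl2 level of the classes. After thinning, it was found in 60.7% of Control (51.4% to 69.4%) and 94.0% of ISO barcodes (86.5% to 98.0%). Cxcl1 had 3 UMIs in the Control, at 8.13 CPM, and 240 in the ISO library, at 545 CPM, a log2 ratio of 5.85 (4.50 to 8.35). Cxcl3 was at 108 CPM in the Control, where 1 barcode held 39 of the 40 UMIs, and at 608 CPM in the ISO library.

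In this class 16.5% of 4258 genes were past 2-fold higher and 11.1% past 2-fold lower, against 3 of the 4 members past 2-fold higher. The macrophage marker list summed to 1019 CPM in Control and 2211 CPM in ISO neutrophil-gated barcodes. Within it, C1qa, which marks macrophages, was at 54.2 and 13.6 CPM, and Spp1 was at 19.0 and 552 CPM. The part of macrophage RNA in the ligand levels of neutrophil-gated barcodes was not tested. The median classical monocyte list score of these barcodes was 0.70 in the Control and 1.45 in the ISO library. The part of monocyte RNA in their ligand and Cxcr2 levels was not tested either. With barcodes limited to a macrophage list level under 0.25, 63 in the Control and 24 in the ISO library, the log2 ratio of Cxcl2 was 2.09, against 2.32.

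Cxcr2 was concentrated in barcodes of the neutrophil gate in both libraries. Those that passed this gate, alone or with another lineage, held 89.0% of Control and 81.1% of ISO Cxcr2 UMIs, as 6.17% and 13.3% of kept barcodes. Neutrophil-gated barcodes of no other lineage held 30.5% and 11.9%. Barcodes of neutrophil and macrophage together held 53.7% and 66.0%, beside 7.12% and 15.3% of all UMIs. Most receptor transcripts were thus counted in droplets that also carried macrophage markers. All barcodes that passed the macrophage gate held 62.3% of Control and 83.1% of ISO Cxcr2 UMIs, near their 63.1% and 81.9% of all UMIs.

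The Cxcr2 level of neutrophil-gated barcodes was lower in the ISO library. It was at 1217 CPM in the Control (449 UMIs) and 615 CPM in the ISO library (271 UMIs), 1.98-fold lower, with a log2 ratio of −0.98 (−1.21 to −0.76). This log2 ratio lay at the 11.5th percentile of genes in the class. Barcodes of neutrophil and macrophage together differed in the same direction, at 267 and 177 CPM (log2 ratio −0.59, −0.72 to −0.46), with 3 of the 4 members past 2-fold higher where 6.5% of 11275 genes were past 2-fold higher and 18.9% past 2-fold lower. Over all barcodes that passed the neutrophil gate, Cxcr2 was at 372 and 200.3 CPM.

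The size of this difference depended on which barcodes were counted as neutrophils. With a macrophage list level under 0.25, the log2 ratio of Cxcr2 was −0.27 (−0.61 to 0.06), from 247 Control and 110 ISO UMIs, an interval that includes no difference. After thinning, 71.3% of Control neutrophil-gated barcodes (62.4% to 79.1%) and 48.2% of ISO ones (37.1% to 59.4%) had a Cxcr2 UMI. In barcodes of neutrophil and macrophage together these shares were 19.3% and 19.6%. Without thinning, 92.6% and 85.5% of neutrophil-gated barcodes had a UMI, and the most in a barcode was 10 UMIs in each library.

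Outside the neutrophil gate, Cxcr2 was found in few barcodes. Thinned shares were 0.323% in Control and 0.653% in ISO macrophage-gated barcodes, against 0.0987% in 2026 Control B cell-gated barcodes. The ISO share lay within the interval of ISO B cell-gated barcodes given above, which is too wide to tell this share from the floor. Macrophage-gated barcodes held 3.60% of Control and 11.3% of ISO Cxcr2 UMIs, beside 17.4% and 42.7% of all UMIs. Mast cell- or basophil-gated barcodes were an exception in the Control, with 17 Cxcr2 UMIs in 16 barcodes, at 225 CPM, of which 7 of the 17 UMIs were in 1 barcode. Hdc, which is on the neutrophil list and is made by mast cells and basophils, supplied 496 UMIs of that list in these barcodes, while the neutrophil genes Csf3r, Mmp9, and Il1r2 had 0.

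Ligand and receptor were found in the same neutrophil-gated barcodes. In the ISO library Cxcl2 was found in 95% of the 40 thinned barcodes with Cxcr2 (83.1% to 99.4%) and in 93.0% of the 43 without it (80.9% to 98.5%). In the Control it was found in 56.3% of the 87 with Cxcr2 (45.3% to 66.9%) and in 71.4% of the 35 without it (53.7% to 85.4%). The intervals overlap in each library, so these barcodes do not tell apart whether Cxcl2 was more frequent with or without the receptor.

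Other genes of neutrophils were set beside the receptor. Cxcr4, which holds neutrophils in the marrow and marks aged ones, was at 2111 CPM in Control and 577 CPM in ISO neutrophil-gated barcodes, a log2 ratio of −1.87 (−2.08 to −1.67). Csf3r, the receptor of G-CSF, was at 2555 and 974 CPM, and S100a8 at 32987 and 22358 CPM. Other surface genes were at higher ISO levels in the same class, Cd14 at 916 and 4078 CPM and Ccrl2, an atypical chemokine receptor, at 2051 and 3680.2 CPM.

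Of 7 other chemoattractant receptors of neutrophils, 1 was past 2-fold higher and 1, Cxcr4, past 2-fold lower in neutrophil-gated barcodes, with a list median log2 ratio of 0.62. The higher one was Ltb4r1, the leukotriene B4 receptor, at 75.9 and 259 CPM. Fpr1 and Fpr2, which sense formylated peptides, were at 189.7 and 293 CPM and at 173 and 293 CPM. C5ar1, the receptor of complement C5a, was at 479.6 and 669.7 CPM. Cxcr1 had 4 UMIs in each library. In macrophage-gated barcodes 4 of the 7 were past 2-fold higher and 0 lower, among them Ltb4r1 at 11.8 and 271 CPM and Ccr1, a CC chemokine receptor, at 73.6 and 296 CPM. The counts of this list and the lists below stand beside the shares of all compared genes. These were 16.5% higher and 11.1% lower in neutrophil-gated barcodes, and 8.75% higher and 21.6% lower in macrophage-gated barcodes.

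None of 16 genes of CXCR2 signal transduction and desensitisation was past 2-fold in neutrophil-gated barcodes, and their median log2 ratio was −0.33, beside −0.01 over all 4258 genes. Gnai2, which encodes the inhibitory G protein subunit that CXCR2 uses, was at 1301 and 1053 CPM. Grk2, a kinase that desensitises the receptor, was at 301 and 229 CPM, and Pik3r5, a subunit of the PI3K that chemokine receptors engage, at 165 and 90.8 CPM. In macrophage-gated barcodes, 1 of the 16 was past 2-fold higher (Fgr, a Src family kinase, at 36.9 and 143 CPM) and 1 lower (Pik3cg, at 73.1 and 34.3 CPM).

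Genes that induce the ligands were examined from a list of 23. In macrophage-gated barcodes 5 of the 22 compared were past 2-fold higher and 1 lower, with a median log2 ratio of 0.11. Il1a was at 106 and 442 CPM, Il1b at 3860 and 10519 CPM, and Tnf at 676 and 1610 CPM. Nfkbia, which encodes the NF-kB inhibitor that NF-kB itself induces, was at 2466 and 6815 CPM, and Hif1a at 57.7 and 277 CPM. The genes of the NF-kB subunits were within 2-fold, among them Nfkb1 at 213 and 225 CPM and Rela at 121 and 68.5 CPM. Egr1, an immediate early gene, was at 1295 and 484 CPM.

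In neutrophil-gated barcodes 6 of 21 inducers were past 2-fold higher and 2 lower, with a median of 0.61. Of all genes compared in the class, 16.5% were past 2-fold higher and 11.1% lower. Il1a was at 32.5 and 711 CPM and Tnf at 366 and 1916 CPM. Il1b, at 25119 and 25289 CPM, was level. Tnfrsf1a, a receptor of TNF, was at 626 and 282 CPM, and Fos at 3693 and 1567 CPM.

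Factors that act on the decay of AU-rich transcripts were mostly within 2-fold in macrophage-gated barcodes. Of 9 genes 2 were past 2-fold lower and 0 higher, with a median log2 ratio of −0.52, beside −0.26 over all genes. Zfp36, which encodes tristetraprolin, was at 2609 and 1704 CPM (−0.61, −0.64 to −0.59). Its relative Zfp36l1 was at 361 and 132 CPM and Mapk14, the p38 kinase that restrains tristetraprolin, at 119 and 51.0 CPM. Elavl1, which encodes the stabilising protein HuR, was at 69.8 and 126 CPM. In neutrophil-gated barcodes 1 was past 2-fold higher and 1 lower, Zfp36l2, at 366 and 166 CPM.

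Other ligands of CXCR2 were compared where they had UMIs enough, and 2 of 2, Cxcl5 and Ppbp, were past 2-fold higher in macrophage-gated barcodes. Cxcl5, often made by stromal cells and platelets, had 1 UMI in Control and 47 in ISO macrophage-gated barcodes, at 0.138 and 1.99 CPM. Ppbp, which encodes CXCL7 and marks platelets, was at 14.9 and 46.9 CPM there and at 209 CPM in the 186 ISO resident barcodes. Cxcl15 had 1 UMI in ISO macrophage-gated barcodes. In neutrophil-gated barcodes Cxcl5, Ppbp, and Cxcl15 had 0 UMIs in both libraries.

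CXC chemokines without the ELR motif, which mainly draw lymphocytes, and their receptors were mixed in macrophage-gated barcodes. Of 10 genes compared, 1 was past 2-fold higher and 6 were lower, with a median log2 ratio of −1.38. The lower ones were the chemokine genes Cxcl9, Cxcl13, and Cxcl16 and the receptor genes Cxcr3, Cxcr5, and Cxcr6. Cxcl9 was at 22.5 and 0.254 CPM, Cxcl13 at 13.1 and 0.0423 CPM (1 UMI), and Cxcl16 at 509.8 and 181 CPM. Cxcl14 was at 16.2 and 38.0 CPM, Cxcl10 at 194 and 334 CPM, Cxcl11 at 1.94 and 3.04 CPM, and Cxcl12 at 5.12 and 3.85 CPM.

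Among 8 other signals that grow or recruit neutrophils, 3 were past 2-fold higher and 2 lower in macrophage-gated barcodes. Csf3, which encodes G-CSF, was at 8.02 and 32.2 CPM, Csf1 at 5.67 and 31.8 CPM, and Ptgs2, which encodes cyclooxygenase 2, at 122 and 631 CPM. In neutrophil-gated barcodes 3 of 7 were past 2-fold higher. Ccl3 was at 257 and 1814 CPM, Ccl4 at 645 and 4309 CPM, and Csf3 at 8.13 CPM (3 UMIs) and 97.6 CPM.

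Of 7 genes of rolling and adhesion, 3 were past 2-fold higher in macrophage-gated barcodes: Itgam and Itgb2, the subunits of Mac-1, at 211 and 647 CPM and at 220.4 and 473 CPM, and Cd44 at 369 and 851 CPM. In neutrophil-gated barcodes Icam1, with 1 Control UMI and 20 ISO UMIs, was past 2-fold higher. Itgal, a subunit of LFA-1, was at 504 and 252 CPM.

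**Figure D5:**
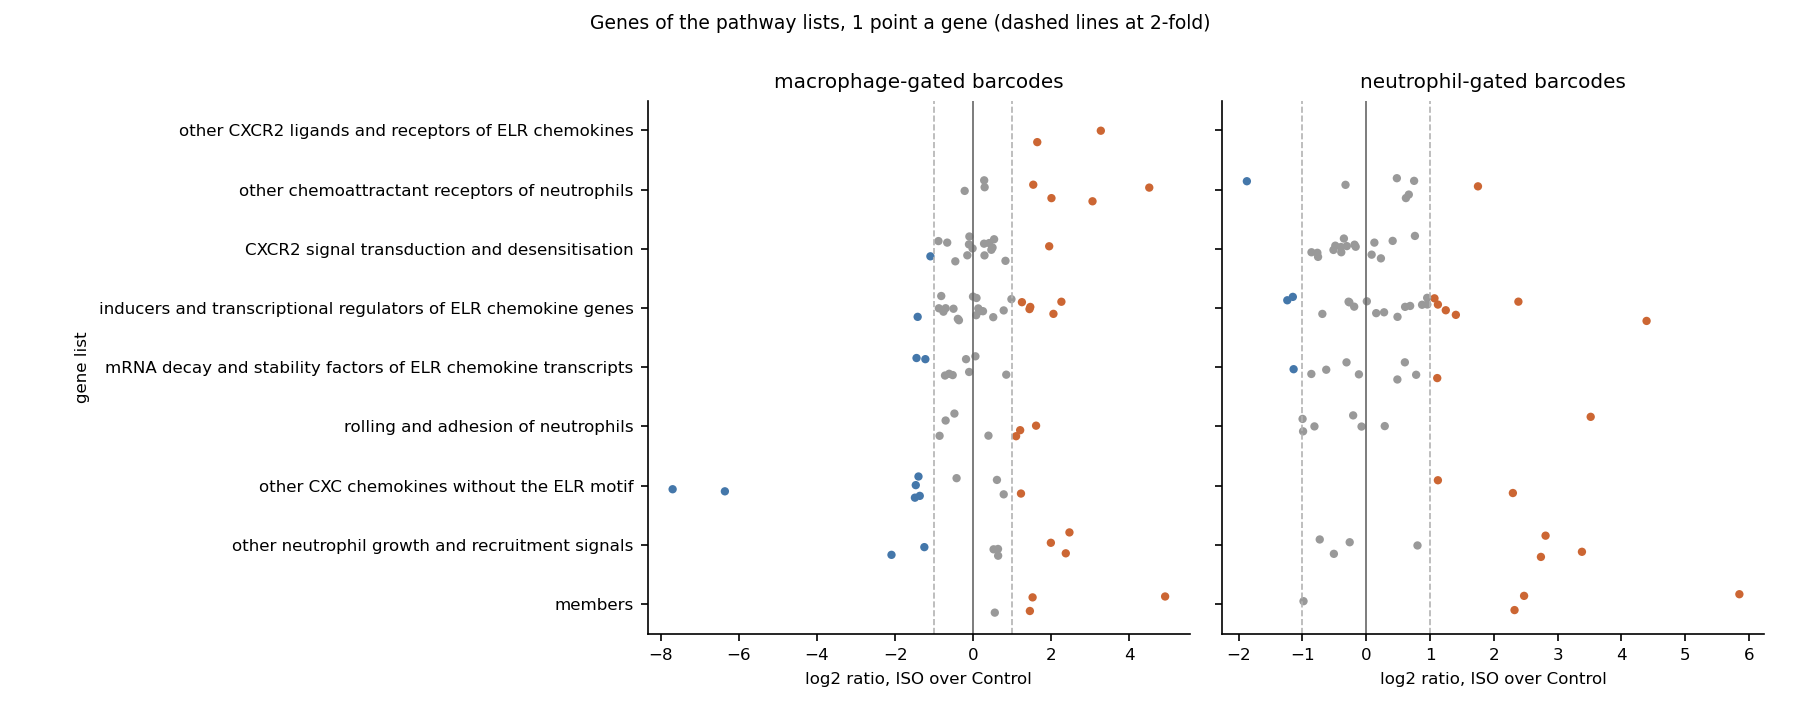
The log2 ratio (ISO over Control) of each compared gene of 8 lists and the 4 members, 1 point a gene, in macrophage-gated (left) and neutrophil-gated (right) barcodes, on axes of different range. Orange points are past 2-fold higher, blue points past 2-fold lower, and grey points within 2-fold. Of the members, the ligands lie past 2-fold higher on both sides, and Cxcr2 lies at 0.56 on the left and at −0.98 on the right.

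Likeness between members was measured across the classes. Over 27 points, the classes of both libraries with at least 20 barcodes, the Pearson correlation of log2(CPM + 1) was 0.84 between Cxcl2 and Cxcl3, 0.67 between Cxcl1 and Cxcl2, and 0.63 between Cxcl1 and Cxcl3. Between Cxcr2 and its ligands it was 0.05 for Cxcl1, 0.55 for Cxcl2, and 0.54 for Cxcl3. Among 11270 genes, those most like Cxcr2 were H2-Q10 (0.98), S100a9 (0.95), S100a8 (0.94), Nlrp12 (0.94), and Il1f9 (0.93), a set in which S100a8 and S100a9 encode abundant neutrophil proteins.

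Those most like Cxcl2 were Cd14 (0.94), which encodes a receptor for lipopolysaccharide, Lilrb4 (0.93), Clec5a (0.91), Ier3 (0.91), and Rab20 (0.90). Cxcl1 was most like Lpl (0.90), which encodes lipoprotein lipase, and Ecm1 (0.86) and Anxa3 (0.85) were also among the 5 most like it. Cxcl3 was most like Cebpe (0.89), Saa3 (0.87), Spp1 (0.86), Il1a (0.85), and Gm14023 (0.84). Spp1 is on the macrophage list that made the classes. The points share libraries and depth, so these are descriptions of likeness.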

How the data were processed

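CD45+ live cells were sorted by FACS after collagenase digestion and made into 10x 3′ libraries. The authors deposited UMI counts per gene and cell barcode, not normalized; the submitters' processing notes name UMI-tools 1.0.0, STAR 2.7.3a, featureCounts of Subread 1.6.4, and mm10. Barcodes with over 500 and under 6000 genes and under 25% mitochondrial UMIs were kept.

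Each barcode was scored as the mean over a marker list of log2(1 + UMIs per 10000) and gated at limits set after seeing the data (1 for neutrophils and macrophages, 1.5 for monocytes, 0.45 to 0.9 for the other lineages). No member was on a marker list. Macrophage-gated barcodes were split at 0.9 for resident genes, 2.4 for Arg1, and 4 for MHC class II genes. No doublet caller was run, and barcodes of 2 or more lineages formed classes of their own, with macrophages, monocytes, and DCs as 1 lineage split by the highest score relative to its limit. Barcodes of the neutrophil gate with a higher relative classical monocyte score went to that class. UMIs were summed per class and library. Ratios had 0.5 UMI added and exact conditional intervals, levels had Poisson intervals, and shares had Clopper-Pearson intervals, all at 95%. Genes with at least 20 UMIs were compared and called past 2-fold. The level of 3 UMIs was used as the floor where a class had 0. Intervals cover counting error only. Depth was a median of 4790 (Control) and 8537 (ISO) UMIs per kept barcode.

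The members and 8 gene lists were chosen with earlier results of these data known. List genes past 2-fold or with the highest level, and the 5 genes most like each member among genes with at least 200 UMIs, were named by rule, and other genes after their values were seen. Some genes that the rule names are not reported here. Alternatives changed the gates, filters, scaling, thinning depth, and added UMI. Calculations used Python 3.11.15, numpy 2.4.6, scipy 1.17.1, and pandas 2.3.3, and were tested on simulated data.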

Additional observations from a re-analysis of the deposited data

Results flagged for a closer look

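Barcodes that the cell filters left out, 286 in the Control and 77 in the ISO library, entered no comparison of the report and were used only in the alternative without cell filters, and all 4 members had signal there above the Control level. Cxcl1 was at 879 CPM in these ISO barcodes and 209 CPM in the Control ones. Cxcl2 was at 16537 and 4700 CPM, Cxcl3 at 396 and 4.89 CPM, and Cxcr2 at 61.3 and 39.3 CPM. Nearly all of it was in barcodes at or over the maximum of 6000 genes, 134 in the Control and 65 in the ISO library, where Cxcl2 was at 4972 and 16771 CPM. In barcodes at or under the minimum of 500 genes, 118 and 8 in number, Cxcl2 was at 299 and 178 CPM. These levels were not tested, as each group was 1 library.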

How the results depend on the processing

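Of 182 alternative values for the log2 ratios of the members and for the class shares, 88 moved by less than the counting interval, 91 moved further, and 3 turned direction. Class shares are the percent of a ligand's UMIs in macrophage-gated and of Cxcr2 UMIs in neutrophil-gated barcodes. The 3 that turned were log2 ratios of Cxcr2 over all kept barcodes. The class shares of the ligands, larger in the ISO library, were larger in the Control for all 3 ligands with the gate limits multiplied by 2, and for Cxcl1 and Cxcl2 by the highest list and with all barcodes that passed the gate. Each ligand was higher in the ISO library under every alternative tried, and Cxcr2 in neutrophil-gated barcodes was lower under each, with an interval of −0.61 to 0.06 at a macrophage list level under 0.25. The causes of these moves were not tested. Without barcodes of 2 or more lineages, log2 ratios were 2.58 for Cxcl1, 2.60 for Cxcl2 and −0.58 for Cxcr2 over all kept barcodes. As means of per-barcode CPM, log2 ratios were 2.50 for Cxcl1, 2.61 for Cxcl2 and −0.15 for Cxcr2 over all kept barcodes, and 1.48 for Cxcl2 in macrophage-gated, and 2.41 for Cxcl2 in neutrophil-gated. With the median log2 ratio set to 0, log2 ratios were 2.65 for Cxcl1, 2.71 for Cxcl2, 6.18 for Cxcl3 and 0.73 for Cxcr2 over all kept barcodes, and 1.79 for Cxcl1 and 1.72 for Cxcl2 in macrophage-gated. With the B cell-gated level subtracted, log2 ratios were 2.01 for Cxcl1, 1.79 for Cxcl2, 5.20 for Cxcl3 and −0.24 for Cxcr2 over all kept barcodes, and 1.41 for Cxcl1, 1.11 for Cxcl2 and 4.51 for Cxcl3 in macrophage-gated, and 2.12 for Cxcl2 in neutrophil-gated. Without cell filters, log2 ratios were 2.13 for Cxcl2 over all kept barcodes, and 1.49 for Cxcl2 in macrophage-gated. The class shares there were 31.3% (Control) and 51.5% (ISO) for Cxcl1, 30.6% (Control) and 49.4% (ISO) for Cxcl2, 26.4% (Control) for Cxcr2. Without the 5% of barcodes with the most UMIs, log2 ratios were 2.27 for Cxcl2 and 0.11 for Cxcr2 over all kept barcodes, and 1.38 for Cxcl1 and 1.40 for Cxcl2 in macrophage-gated. Class shares were then 36.8% (Control) for Cxcl1, 37.7% (Control) and 49.4% (ISO) for Cxcl2, 45.4% (ISO) for Cxcl3, 35.5% (Control) and 14.3% (ISO) for Cxcr2. With at least 1000 genes, log2 ratios were 0.37 for Cxcr2 over all kept barcodes, and 2.52 for Cxcl2 in neutrophil-gated. The class shares were then 21.8% (Control) for Cxcr2. With the gate limits multiplied by 2, log2 ratios were 1.67 for Cxcl1 and 1.54 for Cxcl2 in macrophage-gated, and −1.33 for Cxcr2 in neutrophil-gated. The class shares there were 61.3% (Control) and 46.7% (ISO) for Cxcl1, 60.6% (Control) and 40.7% (ISO) for Cxcl2, 60.8% (Control) and 39.8% (ISO) for Cxcl3, 18% (ISO) for Cxcr2. With them divided by 2, log2 ratios were 1.40 for Cxcl1 and 1.33 for Cxcl2 in macrophage-gated, and 1.504 for Cxcl2 and −1.37 for Cxcr2 in neutrophil-gated. Class shares were then 23.8% (Control) and 38.9% (ISO) for Cxcl1, 24.2% (Control) and 36.3% (ISO) for Cxcl2, 21.5% (Control) and 29% (ISO) for Cxcl3, 23.8% (Control) and 6.93% (ISO) for Cxcr2. With each barcode put in the class of its highest list, log2 ratios were 1.76 for Cxcl1, 1.68 for Cxcl2 and 5.32 for Cxcl3 in macrophage-gated, and 2.08 for Cxcl2 and −1.35 for Cxcr2 in neutrophil-gated. The class shares were then 74.6% (Control) and 72.9% (ISO) for Cxcl1, 76.2% (Control) and 68.3% (ISO) for Cxcl2, 67.2% (Control) and 67.4% (ISO) for Cxcl3, 38.3% (Control) and 29.6% (ISO) for Cxcr2. With the other lineage’s list level under 0.25, log2 ratios were 1.42 for Cxcl2 and 4.62 for Cxcl3 in macrophage-gated, and 2.09 for Cxcl2 and −0.27 for Cxcr2 in neutrophil-gated. Without barcodes that also passed the classical monocyte gate, they were 1.42 for Cxcl1, 1.36 for Cxcl2 and 4.57 for Cxcl3 in macrophage-gated. With all barcodes that passed the gate, log2 ratios were 2.07 for Cxcl2 in neutrophil-gated. The class shares there were 96.2% (Control) and 95.9% (ISO) for Cxcl1, 95.9% (Control) and 93% (ISO) for Cxcl2, 84.9% (Control) and 94.6% (ISO) for Cxcl3, 89% (Control) and 81.1% (ISO) for Cxcr2. With under 10% mitochondrial UMIs, class shares were 33.1% (Control) for Cxcl2. The alternatives on the other lineage's list, on barcodes that also passed the classical monocyte gate, on all barcodes that passed a gate, and on shared barcodes were chosen after seeing the data. Adding 0.1 UMI or leaving out barcodes found in both libraries moved no value past its counting interval. Thinning to 2000 UMIs in place of 1000 gave higher shares in 82 of 116 cases, lower in 9, and equal in 25. No paired analysis was possible because each group was 1 library, and no replicate could be left out for the same reason.

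The intervals cover counting error within 2 libraries and say nothing of the spread between mice. Classes rest on marker limits set with the data in view, and 25.2% of Control and 18.8% of ISO barcodes carried markers of 2 or more lineages. Neutrophil-gated barcodes were few, 122 and 83, and 1 barcode held 39 of the 40 Control Cxcl3 UMIs there. Classes of at most 52 ISO barcodes, among them B, T, and NK cell-gated, rest largely on single barcodes for Cxcl2. A 3′ library does not tell isoforms apart, and transcripts do not give secreted protein.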
